A study of Bos taurus with 4 samples.

Results

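KRT8, KRT18 and KRT19 are the keratins of the trophectoderm, the outer epithelium of the blastocyst that goes on to form the placenta. They were taken as every probe that the platform annotation gives to one of these 3 symbols. Each gene had 1 probe, so 3 of 15216 named genes, or 3 of 43794 probes, are described here. The probes were EMBV3_19092 for KRT8, EMBV3_18934 for KRT18 and EMBV3_20772 for KRT19.

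Keratins build intermediate filaments as pairs of a type II and a type I chain, and a chain without a partner is unstable. KRT8 is a type II keratin, and KRT18 and KRT19 are type I keratins. Together they are the keratins of simple, single-layered epithelia. In mouse embryos they are among the first intermediate filament proteins made, and they mark the trophectoderm against the inner cell mass. In the cattle assembly ARS-UCD2.0 the annotation places KRT18 and KRT8 as neighbouring protein-coding genes on chromosome 5, between EIF4B and KRT78. KRT19 lies on chromosome 19 in a run of keratin genes, between KRT15 and KRT9.

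The samples were pools of early in vitro blastocysts of Holstein cattle, collected 168 h after fertilization from oocytes that the same heifers gave at 8 and at 14 months of age. All oocytes were fertilized with semen of 1 bull, and all donors received the same progesterone and FSH programme before ovum pickup. Each of 4 heifers (n = 4) gave 1 two-colour array that held both samples of that heifer. The 8-month embryos carried Cy5 and the 14-month embryos Cy3 in heifers 1 and 2, and the dyes were exchanged in heifers 3 and 4. The collection at 8 months always came first, so age and order of collection cannot be told apart. In such pools, fewer trophectoderm cells and less keratin RNA per cell cannot be told apart either. Between 26.9% and 51.1% of probes were above background in a sample, and 17685 probes were tested. The number of arrays limits the precision.

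All 3 keratins were measured in every sample. The probes were above background in all 8 samples. None of the 3 passed the test for donor age (0 of 3, limma, adjusted p under 0.05 over all tested probes). Of all tested probes 1.88% passed. At an unadjusted p under 0.05 the count was 1 of 3, KRT8, where 26.5% of all tested probes reached it. The 3 genes behaved differently over the heifers. KRT8 was lower at 8 months in 3 of 4 heifers. The ratio of KRT18 changed sign with the dyes. That of KRT19 changed sign between heifers of the same dye orientation.

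KRT8, the type II partner of both other chains, gave spots at the top of the scanner's range. Its median foreground intensities at 8 months were 49099, 65499, 45090 and 52590 in heifers 1 to 4, on a linear scale whose highest value in the files, taken as its end, was 65535. At 14 months they were 65419, 63470, 65535 and 65535. At 14 months the 4 samples thus stood between 96.85% and 100% of the end of the scale. At 8 months only heifer 2 did so, at 99.95%, and the other samples stood between 68.8% and 80.25%.

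After normalization the log2 ratios of 8 over 14 months for KRT8 were -0.24, 0.03, -0.67 and -0.31 in heifers 1 to 4. The 3 heifers with a negative ratio included both dye orientations, and the ratio of heifer 2, in which both samples lay near the end of the scale, was close to 0. The fitted age effect was -0.30 ± 0.11 (standard error, n = 4 heifers), that is 1.23-fold lower at 8 months. Its 95% interval ran from -0.55 to -0.04 (adjusted p = 0.148, limma). With the whole spread over the 4 heifers in the error, that is without a dye term, the interval was -0.61 to 0.02. An exact sign-flip test over the 4 heifers gave p = 0.25, two-sided, where the smallest p this design allows is 0.125.

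The ratios of KRT8 are limited by the scale. The spots of heifers 3 and 4 were saturated in the 14-month sample, and 0 of 4 were in the 8-month samples, by the criterion that the median pixel equals the end of the scale. A saturated spot gives only a lower bound for the intensity, so the ratios of KRT8 in heifers 3 and 4 are upper bounds. The normalized log2 levels at 14 months were 15.93, 15.92, 16.04 and 15.91 (mean 15.95 ± 0.06, SD, n = 4). At 8 months they were 15.70, 15.95, 15.37 and 15.59 (15.65 ± 0.24). The 14-month values, with the smaller spread, were those at the end of the scale, and the ages overlapped through heifer 2. With saturated spots left out, only heifers 1 and 2 remained for KRT8, and age could not be separated from dye. With the mean in place of the median pixel intensity the age effect was -0.29 ± 0.11 (adjusted p = 0.199, limma). The 8 mean intensities lay between 30239 and 43035. In the saturated spots at least 50% of the pixels lay at the end of the scale, so their mean is a lower bound too. The mean pixel intensity therefore cannot show how far saturation moved the ratios. The local background of the KRT8 spot was also raised, at 104 to 486, where the array medians were 20 to 40. It was raised less for the other keratins, at 66 to 240 for KRT18 and 54 to 156 for KRT19.

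**Figure D1:**
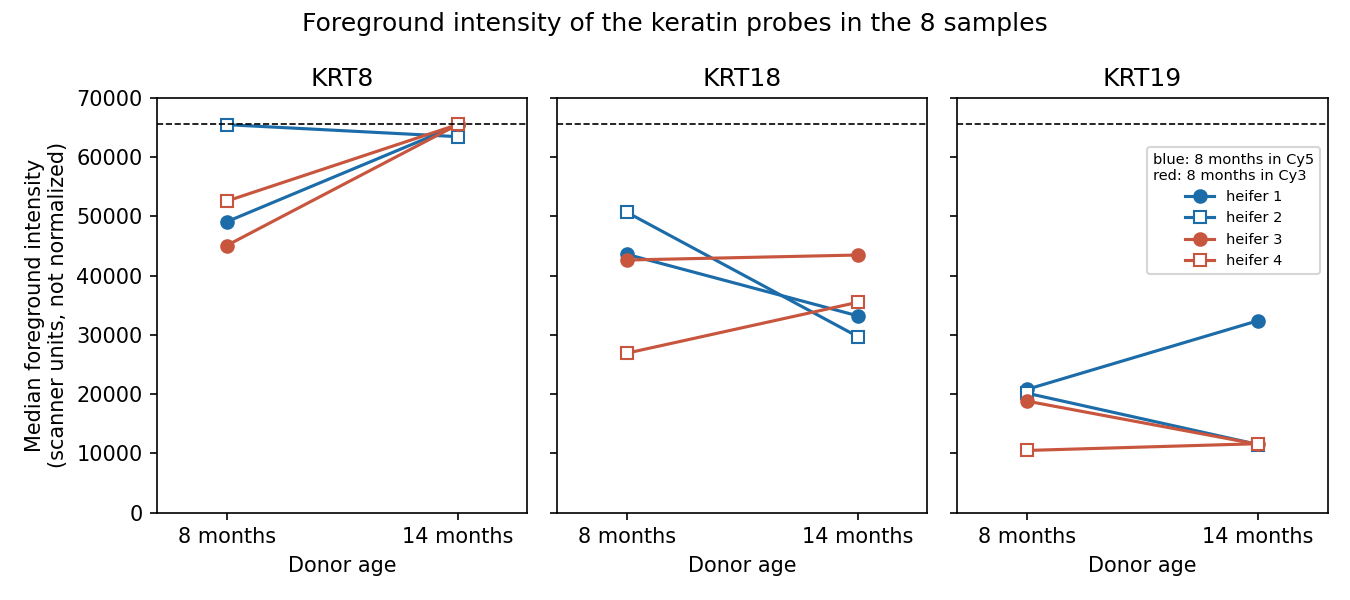
Median foreground intensity of the 3 keratin probes (y axis, scanner units, not normalized) in embryos of the 8- and 14-month collections, with a line for each heifer. The dashed line is the end of the scale at 65535. All 14-month values of KRT8 lie at or just under it, between 63470 and 65535, while the highest value of KRT18 and KRT19 is 50717.

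KRT18 is the type I chain that pairs with KRT8 in simple epithelia and is often used as a trophectoderm marker in cattle embryos. Its median foreground intensities were 43611, 50717, 42642 and 26910 at 8 months in heifers 1 to 4. At 14 months they were 33210, 29688, 43489 and 35518, so no sample reached the end of the scale. The samples of both ages overlapped.

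For KRT18 the log2 ratios of 8 over 14 months were 0.57, 0.79, -0.20 and -0.47 in heifers 1 to 4. They were positive in both heifers whose 8-month embryos carried Cy5 and negative in both whose 8-month embryos carried Cy3. Read as Cy5 over Cy3, the ratios were 0.57, 0.79, 0.20 and 0.47, so the Cy5 sample was the brighter one on 4 of 4 arrays. Heifer 3 bears this out least. Its log2 ratio of 8 over 14 months was -0.04 before loess normalization and 0.05 in the authors' deposited ratios. The fitted age effect was 0.17 ± 0.10 (95% interval -0.07 to 0.41, adjusted p = 0.312). The fitted dye effect of the same model, Cy5 over Cy3, was larger at 0.50 ± 0.10 (95% interval 0.27 to 0.74, unadjusted p = 0.00161 and adjusted p = 0.101, limma).

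None of the 3 keratin probes passed for dye (0 of 3), where 0.102% of all tested probes did. KRT18 alone had an unadjusted p under 0.05 for dye, as did 19% of all tested probes. The dye effects of the other keratins were 0.20 ± 0.11 for KRT8 (adjusted p = 0.366) and 0.09 ± 0.22 for KRT19 (adjusted p = 0.861). The saturated 14-month spots of KRT8 carried Cy5, so its fitted dye effect is a lower bound. Its error and p-value rest on the same spots, so whether KRT8 differed from KRT18 in its dye effect is not settled. The error of the fitted age effect leaves out what turns with the dye. Without the dye term the age effect of KRT18 had a standard error of 0.22 in place of 0.10, and its interval ran from -0.33 to 0.68. In fold terms the embryos at 8 months could thus lie between 0.794 and 1.6 times those at 14 months. The exact sign-flip test gave p = 0.625.

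**Figure D2:**
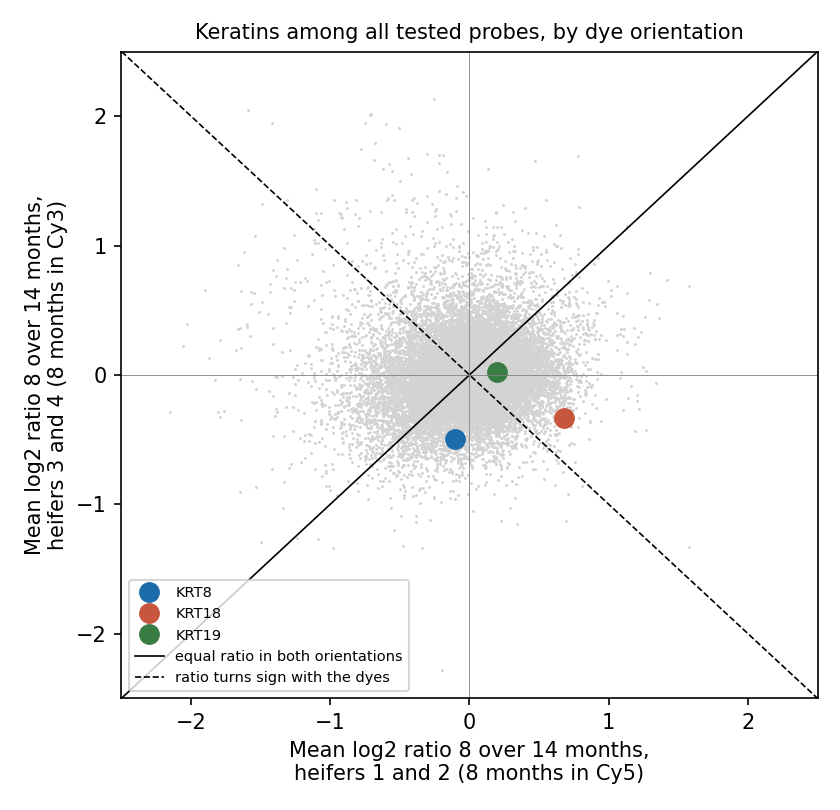
Mean log2 ratio of 8 over 14 months in heifers 3 and 4 (y axis) against that in heifers 1 and 2 (x axis) for the 17685 tested probes in grey and the 3 keratins in colour. KRT18 (0.68 and -0.33) lies towards the dashed line on which a ratio turns sign with the dyes, KRT8 (-0.10 and -0.49) is negative on both axes, and KRT19 (0.20 and 0.02) lies near the centre.

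KRT19 is a short type I keratin that lacks most of the tail domain of other keratins and can also pair with KRT8. Its median foreground intensities were 20792, 20172, 18829 and 10490 at 8 months in heifers 1 to 4. At 14 months they were 32406, 11491, 11527 and 11632. Heifer 1 was high at 14 months and the other 3 heifers were nearly equal, while heifer 4 was low at 8 months.

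The log2 ratios of 8 over 14 months for KRT19 were -0.47, 0.87, 0.38 and -0.33. Heifers 1 and 2 shared a dye orientation and differed by 1.34, and heifers 3 and 4 by 0.71, so the sign followed neither the age nor the dye. The fitted age effect was 0.11 ± 0.22 (95% interval -0.41 to 0.64, adjusted p = 0.77). In fold terms this interval spans 0.75 to 1.55 times the level at 14 months. The exact sign-flip test gave p = 0.75. KRT19 had the greatest standard error of the 3 keratins, and its sign depended on single heifers. Without heifer 2 the effect was -0.23, without heifer 3 -0.07, without heifer 1 0.45 and without heifer 4 0.29.

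**Figure D3:**
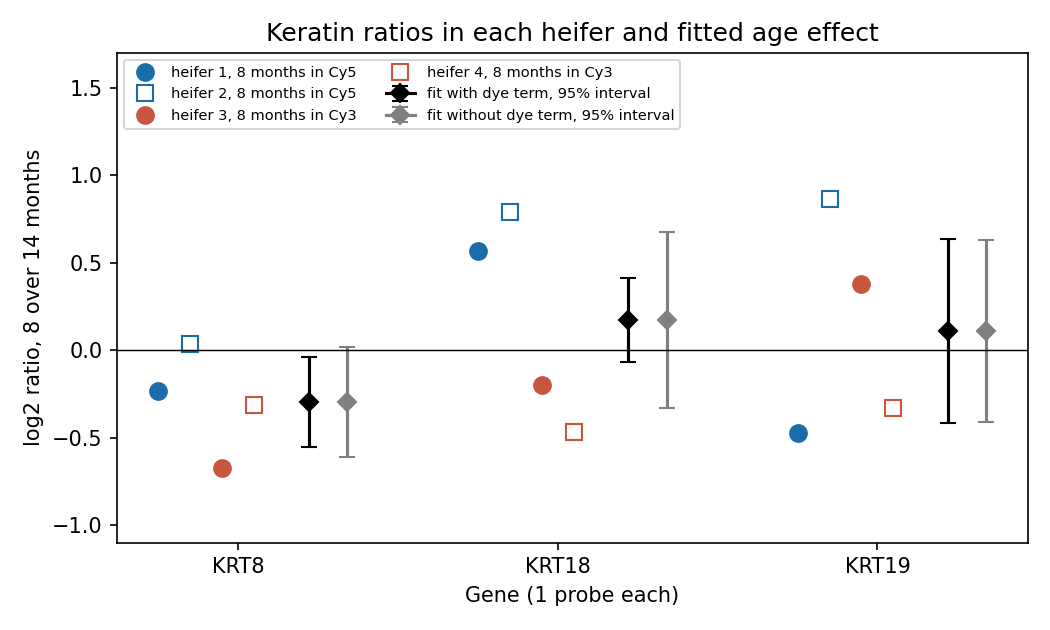
Normalized log2 ratio of 8 over 14 months (y axis) of each keratin in each heifer, with the fitted age effect and its 95% interval with and without a dye term. KRT8 is below 0 in 3 of 4 heifers, KRT18 splits by the dye of the 8-month embryos, and KRT19 splits within each dye orientation.

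The SD of the ratios over heifers takes in what turns with the dye, and it was greater for the type I chains than for KRT8. The SD of the 4 ratios was 0.60 for KRT18 and 0.63 for KRT19, above that of 94.4% and 95.2% of all tested probes. It was 0.29 for KRT8, above 61.5%. The median over all tested probes was 0.246. Between the heifers of the same dye orientation the ratios of KRT18 differed by 0.22 and 0.27, and those of KRT8 by 0.27 and 0.36. Those of KRT19 differed by 1.34 and 0.71. The greater SD of KRT18 thus lay between the dye orientations, while KRT19 also varied within them. For KRT8 the values at the end of the scale limit the SD and these differences.

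The ratios of the keratins were also set against each other within each array. The log2 ratio of KRT18 minus that of KRT8 was 0.80 in heifer 1 and 0.75 in heifer 2. In heifers 3 and 4, where the 14-month spot of KRT8 was saturated, 0.47 and -0.16 are lower bounds, so heifer 4 has no settled sign. The same difference for KRT19 and KRT8 was -0.24 and 0.83 in heifers 1 and 2, with lower bounds of 1.05 and -0.02 in heifers 3 and 4. Between the type I chains it was -1.04, 0.08, 0.58 and 0.14 (KRT19 minus KRT18). Only this last pair was measured below the end of the scale in all 4 heifers, and its difference was negative in heifer 1 and positive in the others.

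Loess normalization, which removes a dye bias that depends on intensity, moved single ratios of these bright probes by up to 0.32. Before it the ratios of KRT18 were 0.40, 0.78, -0.04 and -0.41, and those of KRT19 were -0.64, 0.81, 0.70 and -0.16. Those of KRT8 were -0.41, 0.05, -0.54 and -0.32. The sign was the same before and after loess for each keratin in each heifer. In the authors' deposited table the ratios, turned to 8 over 14 months, were -0.294, 0.00812, -0.483 and -0.261 for KRT8, and -0.467, 0.884, 0.422 and -0.355 for KRT19. For KRT18 they were 0.54, 0.855, 0.0507 and -0.373, so heifer 3 had the opposite sign there.

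Centring each array on its median in place of loess moved the median of all tested probes to -0.14. The age effects were then -0.77 ± 0.15 for KRT8 (adjusted p = 0.00975), -0.28 ± 0.12 for KRT18 (adjusted p = 0.122) and -0.29 ± 0.20 for KRT19 (adjusted p = 0.316). The call for KRT8 and the signs of KRT18 and KRT19 thus depended on this choice. Of the 15 alternatives tried for KRT18, only this one changed its sign.

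**Figure D4:**
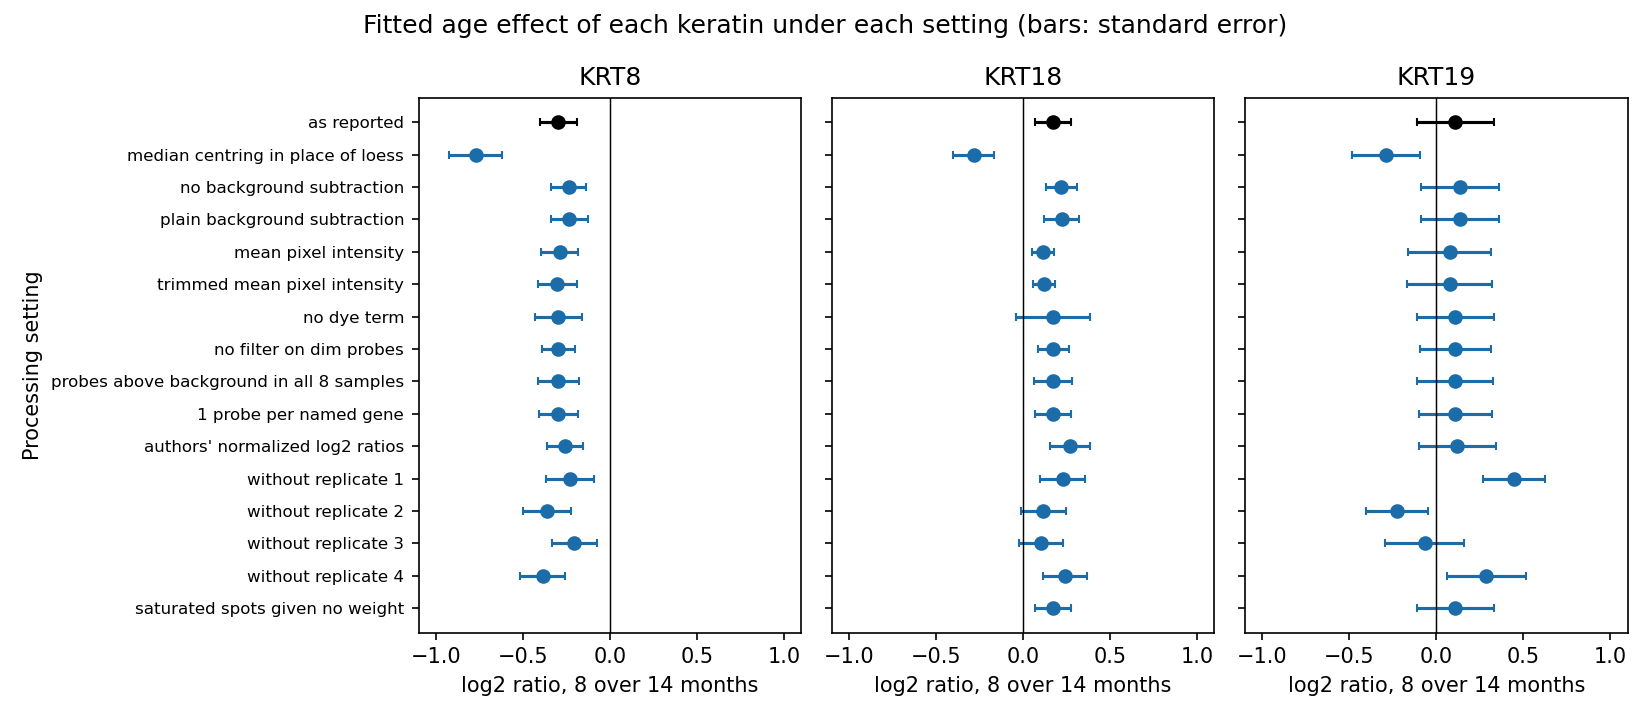
Fitted age effect (x axis, log2 ratio of 8 over 14 months) of each keratin with its standard error under each processing setting (y axis). KRT8 stays below 0 in all settings that gave a value, from -0.773 to -0.206, while KRT18 and KRT19 turn negative under median centring.

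The genes whose ratios lay closest to each keratin over the 4 arrays were listed as a description, by the root mean square difference of the log2 ratios among 8031 named genes. For KRT8 they were WBP2 (0.0554), the phosphoinositide phosphatase MTMR3 (0.0578) and the ubiquitin-conjugating enzyme UBE2N (0.0736), where the median gene differed by 0.475. For KRT18 they were ZFAND1 (0.0735), the proton pump subunit ATP6V1G3 (0.0746) and the sorting nexin SNX4 (0.0816), with a median of 0.617. For KRT19 they were the glycolytic enzyme TPI1 (0.178), the phosphatase PTPN5 (0.19) and CRIP1 (0.194), with a median of 0.642. None of the 3 keratins was among the 3 closest genes of another. The distances from KRT8 use its ratios in heifers 3 and 4, which are upper bounds, so its closest genes are not settled. All 3 genes closest to KRT18 were positive in heifers 1 and 2 and negative in heifers 3 and 4. They were chosen for their closeness to the ratios of KRT18, so the shared signs follow from the choice.

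Most other keratins did not pass the filter for testing. Of 42 other keratin genes on the platform, 20 were above background in no sample, and 7 were tested, of which 2 (KRT7 and KRT85) were above background in all samples. None of the 7 passed for age (0 higher, 0 lower), with a median of 0.0055. The 4 with an unadjusted p under 0.05 (KRT80, KRT6A, KRT73 and KRT84) all entered the test only through the age at which they were brighter, so the filter favours the direction they had and they are no evidence of a change. Over all 8398 tested genes, 56 were higher and 77 lower, with a median of -0.0035. KRT80 had -0.48 ± 0.10 (adjusted p = 0.0544) and KRT6A, a keratin of stratified epithelia, had -0.51 ± 0.12 (adjusted p = 0.0716). Each was detected in 1 of the 4 embryo pools from the 8-month collection. With mean pixel intensities the values were -0.189 for KRT80 and -0.047 for KRT6A. KRT80 was called under median centring (adjusted p = 0.0242), without the filter (0.0336) and with 1 probe per gene (0.0396), and KRT6A under median centring (0.0401), without heifer 3 (0.0423) and with the authors' deposited ratios (0.0455). KRT7, the other type II keratin of simple epithelia and of the human trophoblast, was chosen for naming after its values were seen. Its ratios were -0.11, 0.67, 0.25 and 0.01 in heifers 1 to 4, and its age effect was 0.21 ± 0.14 (adjusted p = 0.374).

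Proteins that anchor or bind keratin filaments were followed as a list of 26 genes, 16 of them tested. None passed (0 higher, 0 lower), where 1.88% of all tested probes did, and the median was -0.10. An unadjusted p under 0.05 was found for 9 of the 16, where 26.5% of all tested probes had one. The count called ran from 0 to 7 over the alternatives, with 7 under median centring and 4 without heifer 4. Calls over all 17685 tested probes rose in these settings too, from 332 to 3416 under median centring and to 1180 without heifer 4. The smallest p-values were those of the 14-3-3 proteins YWHAE (-0.61 ± 0.13, adjusted p = 0.058) and YWHAZ (0.61 ± 0.13, adjusted p = 0.0606), a family that binds phosphorylated KRT18. YWHAE was called in 4 of 15 alternatives (lowest adjusted p = 0.00611) and YWHAZ in 5 of 14 (0.0198). They had opposite signs, and of 3 tested probes of YWHAE only 1 had the sign given. Desmoplakin, DSP, which ties keratin filaments to desmosomes, was named after its values were seen. It had -0.08 ± 0.14 (adjusted p = 0.742).

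Transcription factors of the trophectoderm were tested for 18 of 22 listed genes, and 3 rose at 8 months, 0 fell and 15 did not pass, beside 56 higher and 77 lower of all 8398 tested genes. An unadjusted p under 0.05 was found for 8 of the 18, where 26.5% of all tested probes had one. Among the 8 were ELF5, detected in 4 samples at 8 months and 1 at 14 months, and GRHL2, detected in 0 and 3. Both entered the test only through the age at which they were brighter, so the filter favours the direction they had and they are no evidence of a change. The list's median was -0.12, and its count called ran from 0 to 5 over the alternatives, where that of all probes ran from 0 to 3416. GATA2 (0.61 ± 0.09, adjusted p = 0.0449), TFEB (0.60 ± 0.09, adjusted p = 0.0449) and TEAD4 (0.56 ± 0.10, adjusted p = 0.0457) were positive in 4 of 4 heifers. These genes were named because they passed, which favours ratios of the same sign, so this is no contrast with the keratins. The 3 calls were lost without heifer 1 (adjusted p = 0.278) and without heifer 2 (adjusted p = 0.16), and those of TFEB and TEAD4 also without heifer 3 (0.0501 and 0.0616). They were lost too without the dye term (0.138 to 0.146), under median centring (0.0829 to 0.234), with other background corrections (0.0597 to 0.0688) and with mean or trimmed mean pixel intensities (0.0804 to 0.0837).

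Markers of other cells were measured beside the keratins. Of all tested probes 1.88% passed for age and 26.5% had an unadjusted p under 0.05 (limma). In lists this short, a count of 0 does not show that a cell type was unchanged. Of 8 inner cell mass genes on the platform 7 were tested and 0 passed (1 at an unadjusted p under 0.05), with a median of 0.05. LIN28A had 0.50 ± 0.16 (adjusted p = 0.109) and POU5F1 0.20 ± 0.11 (adjusted p = 0.292). Of 8 primitive endoderm genes 6 were tested and 0 passed (0 at an unadjusted p under 0.05), with a median of -0.01. GATA4 had -0.22 ± 0.10 (adjusted p = 0.198) and RSPO3 -0.16 ± 0.10 (adjusted p = 0.339), and the probe of SOX17 was above background in no sample.

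Of 14 cumulus and granulosa genes 6 were tested, 0 passed (2 at an unadjusted p under 0.05) and the median was -0.14. The shares over all tested probes were 1.88% passing and 26.5% at an unadjusted p under 0.05. The list was divided in its detection. FSHR, AMH, INHA, TNFAIP6, VCAN and FST were above background in no sample. INHBA, STAR, CYP11A1, HSD3B1 and SERPINE2 were detected in all 8, and the aromatase gene CYP19A1 in 2 of 4 pools of the 8-month collection and in 4 of 4 of the later one. HSD3B1, an enzyme of steroid synthesis, had ratios of -1.13, 0.56, -1.15 and -1.09. Its sign was that of KRT8 in each heifer, but in heifer 2 the ratio of KRT8 was only 0.03. Each of the other tested genes of the list differed in sign from KRT8 in some heifers. The age effect of HSD3B1 was -0.70 ± 0.24 (adjusted p = 0.136, limma). Its effect was -0.28 without heifer 1, -1.13 without heifer 2 and -0.407 with mean pixel intensities, and median centring gave a call (adjusted p = 0.0235). SERPINE2 had 0.25 ± 0.10 (adjusted p = 0.185). The summed level of the 6 tested genes ran from 8228 to 15858 at 8 months and from 7154 to 10841 at 14 months, in normalized intensity units, and was lower at 8 months in 2 of 4 heifers. The part of these cells in the keratin ratios was not tested. Of 6 blood cell genes 4 were tested and 0 passed (1 at an unadjusted p under 0.05), with a median of 0.07. PTPRC had 0.31 ± 0.12 (adjusted p = 0.163) and CD3E 0.06 ± 0.09 (adjusted p = 0.691).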

How the data were processed

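The scanner tables deposited by the authors give, per the file headers, raw spot intensities in Cy5 and Cy3 as median, mean and trimmed mean over pixels, with the local background. They are linear values before any normalization. The labels' protocols give 2 rounds of linear amplification before labelling. No image software is named in the labels or headers. The authors also deposited normalized log2 ratios. Against the scanner ratios of the same arrays they read Cy5 over Cy3 (r = 0.997, 0.997, 0.961 and 0.996 over tested probes, slopes 0.982, 0.976, 1.01 and 1.02, medians 0.0036, 0.00028, 0.0014 and -0.0094), so base 2 was taken. The series value table repeats them with the sign turned in heifers 3 and 4 (medians 0.0036, 0.00028, -0.0014 and 0.0094). Their normalization and centring stay unknown, and they served as an alternative.

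Here 14 summary lines per table were dropped and 1426 control or unnamed spots left out of the tests. Median intensities were corrected with normexp (offset 50) and normalized within arrays by loess with control spots at weight 0 (limma 3.58.1, R 4.3.3). A sample was above background where the foreground exceeded the mean of 153 negative control spots by 2 SD. Probes above it in at least 3 of 4 samples of either age were tested. Levels per sample came from the loess ratios with Aquantile scaling. The fit (lmFit, eBayes) had an age term, 8 over 14 months, and a dye term, with 2 residual degrees of freedom before moderation. Tests were two-sided, adjusted by Benjamini-Hochberg over 17685 probes, with a threshold of 0.05.

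Symbols came from the platform annotation (21790 probes with 1 symbol, 0 with several, 22004 with none). Through RefSeq synonyms of ARS-UCD2.0 1524 were replaced, 20025 were current and 241 were kept. Of several probes of a listed gene, the brightest tested one was used. Named are the keratins, in each list the genes that passed and the 2 with the smallest p, and the 3 nearest genes per keratin, loci without a gene name left out. Other listed genes named for their detection alone, such as SOX17, FSHR and CYP19A1, were chosen after their values were seen. The members, lists and tests were chosen with earlier results of these data known. Positions of the probes are not printed, since their build is not stated.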

Additional observations from a re-analysis of the deposited data

Results flagged for a closer look

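The level of KRT19 at 14 months was 14.93 on the log2 scale in heifer 1 and 13.44, 13.58 and 13.68 in heifers 2 to 4. The gap between heifer 1 and the nearest other heifer made up 0.84 of the range, above Dixon's 95% critical value for 4 samples. It was the highest of 9 groups of values checked (ratio, level at 8 months and level at 14 months of each keratin), and chance flags about 5% of such groups.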

How the results depend on the processing

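Each fitted effect was recomputed under up to 15 alternatives, 1 of which, the trimmed mean pixel intensity, was chosen after the data were seen. The age effect of KRT8 was negative in all 14 that gave a value (with saturated spots left out there is none) and was called in 1 of them, median centring, with -0.773. Median centring also turned KRT18 to -0.285 and KRT19 to -0.289, gave 1 keratin called for age and 1 for dye (KRT18, 0.867, adjusted p = 0.02), and turned KRT7 (-0.0983), MAPK14 (-0.0612), MAPK8 (-0.0167), POU5F1 (-0.171) and SERPINE2 (-0.12) negative. The cause was not tested. Leaving out 1 heifer moved KRT19 between -0.225 and 0.445 for age and between -0.249 and 0.421 for dye. Over all tested probes, 332 were called for age (98 higher, 234 lower). There were 3416 under median centring (81 higher, 3335 lower), 1013 without the filter on dim probes, and 0 to 1180 with 1 heifer left out (0 without heifer 1, 0 without heifer 2, 358 without heifer 3 and 1180 without heifer 4). No probe was called by limma without background subtraction, with plain subtraction, with mean or trimmed mean pixel intensities or without the dye term (0 each, with 4506, 4579, 4582, 4480 and 3153 at an unadjusted p under 0.05). Signals at the end of the scale limit KRT8, and the number of arrays limits all 3 keratins.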

Other observations

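Of 15 other intermediate filament genes 8 were tested for age, 1 rose, 0 fell and 7 did not pass, beside 56 higher and 77 lower of all 8398 tested genes. An unadjusted p under 0.05 was found for 2 of the 8, where 26.5% of all tested probes had one, and the median was 0.07. The gene that rose at 8 months was LMNA, which encodes the lamins A and C of the nuclear envelope. Its ratios were 0.98, 0.43, 0.64 and 0.56 in heifers 1 to 4 (age effect 0.65 ± 0.12, adjusted p = 0.0496, limma), and the call was lost without the dye term (adjusted p = 0.137) and without heifer 1 (0.278), heifer 2 (0.16) or heifer 3 (0.0577). It was also lost with other background corrections (0.0615 and 0.0694) and with mean or trimmed mean pixel intensities (0.108 and 0.116). NEFH, a neurofilament subunit, had -0.30 ± 0.09 (adjusted p = 0.108). VIM, the vimentin of mesenchymal cells, was named after its values were seen. Its probe was detected in 0 of 4 pools of the 8-month collection and in 1 of 4 pools of the later one.

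Of 19 genes known to regulate keratin transcription, modification or turnover, 12 were tested and 0 passed, with 2 at an unadjusted p under 0.05 and a median of 0.09. Over all tested probes the shares were 1.88% and 26.5%. The stress kinase MAPK14 had 0.26 ± 0.09 (adjusted p = 0.138) and MAPK8 had 0.35 ± 0.13 (adjusted p = 0.159). Of 3 tested probes of MAPK14 only 2 had the sign given.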
